A study of Mus musculus with 3 samples.

Results

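The nuclear genes for subunits of the oxidative phosphorylation machinery were taken by symbol, as those named Nduf, Sdh, Uqcr, *Cyc1*, Cox4 to Cox8 or Atp5 with a subunit letter or number. They came to 83 of the 22698 Ensembl genes measured, with 82 different symbols, and were grouped by complex into 38 genes of complex I, 4 of complex II, 9 of complex III, 17 of complex IV and 15 of complex V. The RNA was sequenced from mouse melan-a cells with no treatment, a line of melanocytes on a C57BL/6J background whose label gives Ink4a-ARF-/- mice as the source. There were 3 replicates, labelled 1, 3 and 4, of this 1 condition, so the data hold no comparison between treatments. All 3 were grown in RPMI 1640 medium with 10% fetal bovine serum, the phorbol ester TPA at 200 nM and cholera toxin at 200 pM, and the values therefore describe one line in a medium with both agents. The labels do not say whether the replicates were separate cultures, so the spread between them may be technical.

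Oxidative phosphorylation makes most of the ATP of a respiring cell. Complexes I and II pass electrons from NADH and succinate to ubiquinone, complex III passes them on to cytochrome c, and complex IV hands them to oxygen, while complexes I, III and IV pump protons out of the mitochondrial matrix. Complex V, the ATP synthase, lets the protons back through a rotating ring of c subunits and makes ATP in its F1 head. A few subunits are encoded by mitochondrial DNA and the rest by nuclear genes, and several subunits of complex IV exist as isoforms that are used in different tissues.

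Levels are given in FPKM, a count of reads divided by gene length and by library size, as deposited after scaling by the trimmed mean of M values. Beyond library size and its scaling, FPKM adjusts for gene length only. Repeated sequence, GC content and the joined exon length relative to the coding length, given further on, also differ between the genes set side by side. Low values of genes with 1 transcript fell on whole reads at a scaled library size of 54000000, 47100000 and 66300000 reads in replicates 1, 3 and 4, with a mean distance from a whole number of 0.051, 0.0511 and 0.0602 reads. The cell label was checked with marker genes, of which 8 of 8 melanocyte markers were at 1 FPKM or more in every replicate and 6 of 8 were among the highest 1000 genes. The summed level of 5 testis markers was 0.01 to 0.04 FPKM per replicate, with *Prm1*, *Prm2* and *Tnp1* listed at 0. That of 3 lung markers was 0.03 to 0.04 FPKM, with *Sftpc* and *Sftpb* listed at 0. The 3 keratinocyte markers summed to 0.36 to 0.7 FPKM and the 2 brown fat markers to at most 0.01. The 3 fibroblast markers summed to 1.47 to 1.83 FPKM, of which *Col1a1* alone gave 1.33 to 1.77. The 8 striated muscle markers summed to 27.8 to 31.8 FPKM, of which the cardiac troponin gene *Tnnt2* alone gave 27.4 to 31.6, and none of the other 7 reached 1 FPKM in any replicate. *Cdkn2a*, the gene of Ink4a and ARF, had 19.2, 16.5 and 24.3 FPKM in replicates 1, 3 and 4. One value per gene does not show which exons are covered, so the genotype in the label was not checked by it.

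Most of the nuclear subunit genes were expressed at a high level. At 1 FPKM or more in all 3 replicates were 76 of the 83 (91.6%), against a background of 44.1% of all genes. Among the highest 1000 genes by mean FPKM were 42 of them (50.6%), against a background of 4.41% of all genes. The median over the 83 was 66.3 FPKM, with replicate medians of 66.7, 71.5 and 70.3, and the 10011 genes at 1 FPKM or more had a median of 11.1 FPKM. These are descriptions, since the genes were chosen by name with earlier results of these data known. The highest 1000 genes begin at 66.0 FPKM, inside a run of members that differ by less than their spread. *Uqcrq*, a small subunit of complex III, lay just above the limit at 66.3 ± 7.9 FPKM (SD, n = 3). Just below it were *Ndufv3* at 66.0 ± 2.1, *Atp5j* at 65.8 ± 5.3, *Cox5a* at 65.7 ± 5.2 and *Ndufa9* at 65.5 ± 6.8 FPKM.

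**Figure D1:**
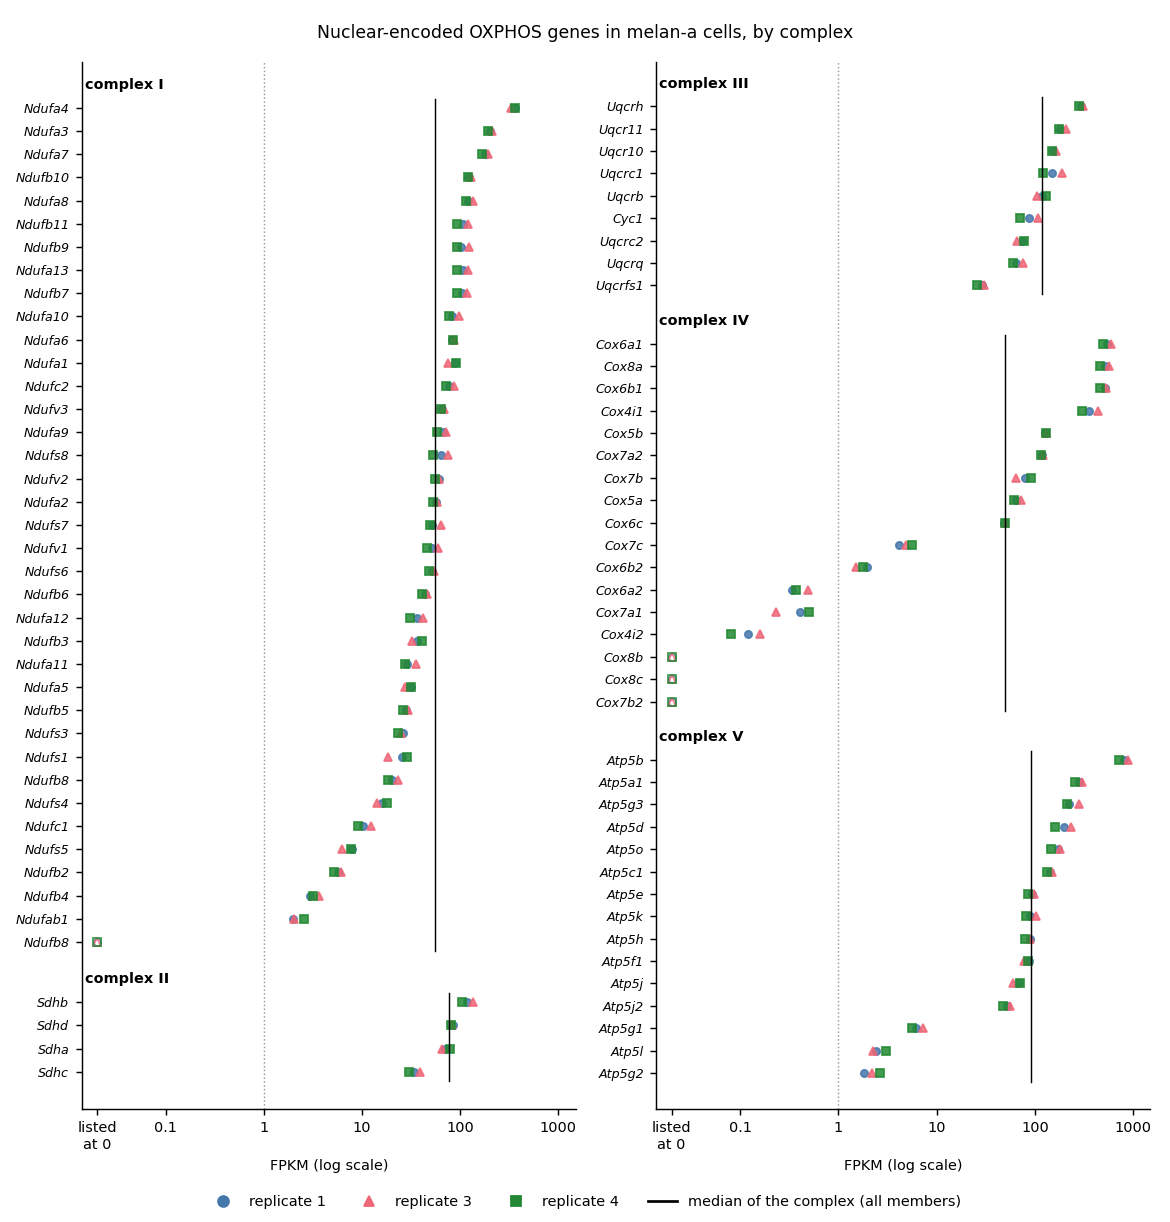
FPKM (log scale) of 82 of the 83 members in the 3 replicates, grouped by complex and ordered by mean; points are replicates, open symbols at the left edge are values listed at 0, the dotted line marks 1 FPKM and the black line the median over all members of a complex. Most members lie between 10 and 1000 FPKM, and the members under 10 FPKM are in complexes I, IV and V only.

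The complexes differed in their median level by less than the range of members within each. The median was 55.6 FPKM in complex I (replicate medians 54.5, 60.1 and 51.1), 77.1 in complex II (77.4, 74.1 and 80.0), 118 in complex III (119, 107 and 121) and 90.9 in complex V (89.1, 98.5 and 85.3). In complex IV it was 118 FPKM over the 11 members at 1 FPKM or more (118, 121 and 115) and 49.7 over all 17. The order of the complexes is not fixed: without members with more than 50% of their coding 50-mers (runs of 50 coding bases) repeated in the genome, complex V had a median of 155 FPKM, above complex III at 120 and complex IV at 118. The members of complex I alone ran from 2.2 to 350 FPKM, leaving aside 1 second gene model of *Ndufb8*. Members under 10 FPKM on average were 5 of 38 in complex I, 8 of 17 in complex IV and 3 of 15 in complex V. In complexes II and III the lowest members were *Sdhc*, a membrane anchor, at 34.2 FPKM and the Rieske protein gene *Uqcrfs1* at 28.2 FPKM.

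In complex I, the core subunits hold the flavin and iron-sulfur clusters or line the path of electrons. *Ndufs8* had 63.6, 74.2 and 52.8 FPKM in replicates 1, 3 and 4, *Ndufs7* had 51.4, 64.3 and 49.4, and *Ndufs3* had 26.0, 24.9 and 23.4. Of the genes of the NADH-oxidizing arm, *Ndufv1*, which binds the flavin, had 51.1, 59.2 and 45.7 FPKM. *Ndufv2* had 61.1, 60.9 and 55.5 FPKM, and *Ndufs1*, which carries several iron-sulfur clusters, had 25.5, 18.5 and 28.5. The ranges of *Ndufv1*, *Ndufv2*, *Ndufs7* and *Ndufs8* over the replicates overlapped. Within each replicate, however, *Ndufv1* was the lowest of the 4, and *Ndufs8* exceeded *Ndufs7* in all 3. The ranges of *Ndufs1* and *Ndufs3* overlapped each other below these 4.

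The highest complex I gene by name was *Ndufa4*, with 361, 330 and 360 FPKM. Its product is now described as a subunit that copurifies with complex IV, so its place in complex I follows the symbol only. The lowest with any reads was *Ndufab1*, the mitochondrial acyl carrier protein, with 2.0, 2.04 and 2.56 FPKM. *Ndufb4* (2.94, 3.66 and 3.19 FPKM), *Ndufb2* (5.72, 6.15 and 5.15) and *Ndufs5* (7.96, 6.19 and 7.74) were the other members of complex I under 10 FPKM with reads. All 3 encode accessory subunits found wherever complex I is assembled. *Ndufb8* appears in the files under 2 identifiers. ENSMUSG00000025204 had 20.4, 23.4 and 18.2 FPKM, and ENSMUSG00000091471 (mm9 chr19:44618212-44627321) was listed at 0 in all 3. The second model lies with 100% of its exon bases inside exons of another same-strand gene, so reads on it cannot be told apart from those of its neighbour.

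Complex II, the succinate dehydrogenase, is the only complex encoded wholly by the nucleus. *Sdha*, the flavoprotein that oxidizes succinate, had 70.4, 65.1 and 79.4 FPKM. *Sdhb*, which carries the iron-sulfur clusters, was the highest with 116, 134 and 103.7 FPKM, and did not overlap the other 3 genes. The membrane anchors were unequal, with 84.3, 83.1 and 80.5 FPKM for *Sdhd* and 34.0, 38.7 and 29.8 for *Sdhc*.

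In complex III, the hinge protein gene *Uqcrh* was the highest with 298, 308 and 280 FPKM. Among the genes for the redox subunits, *Cyc1*, which encodes cytochrome c1, had 88.0, 107 and 70.3 FPKM, and *Uqcrfs1*, the Rieske iron-sulfur protein, had 28.8, 30.2 and 25.5. *Uqcrfs1* was below *Cyc1* in each of the 3 replicates. The core protein genes had 148, 188 and 121 FPKM for *Uqcrc1* and 74.6, 65.8 and 76.8 for *Uqcrc2*. These 2 did not overlap, and *Uqcrc1* had the largest coefficient of variation of the members at 1 FPKM or more, 22.1%.

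In complex V, the gene of the catalytic beta subunit of F1, *Atp5b* (mm9 chr10:127520329-127527447, ENSMUSG00000025393), was the highest of all 83 members and ranked 40 of 22698 genes, with 817, 899 and 716 FPKM. The alpha subunit gene *Atp5a1*, whose product alternates with beta in the F1 ring, had 284, 306 and 255.6 FPKM, and *Atp5c1*, the gene of the central gamma shaft, had 143, 151 and 133. The F1 genes *Atp5d* and *Atp5e* had means of 198 and 92.5 FPKM. The 4 genes of the peripheral stalk, which holds F1 still, were *Atp5o* at 167, *Atp5h* at 86.3, *Atp5f1* at 83.3 and *Atp5j* at 65.8 FPKM. Of the 3 small membrane subunits, *Atp5k* and *Atp5j2* had means of 90.9 and 52.2 FPKM and *Atp5l* had 2.43, 2.25 and 3.07. No value of *Atp5l* came within a factor of 10 of the other 2.

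The isoforms of complex IV known from heart and skeletal muscle, testis and lung were at or near 0, and their widely expressed partners were among the highest genes. *Cox4i1* had 356, 439 and 304 FPKM, while *Cox4i2*, the isoform of lung and low oxygen, had 0.12, 0.16 and 0.08, which is 5, 6 and 4 reads. The ratio was between 2742 and 3804 in the 3 replicates. *Cox6a1* had 538, 592 and 497 FPKM against 0.34, 0.49 and 0.37 for *Cox6a2*, the muscle isoform, or 12, 15 and 16 reads. *Cox7a2* had 118, 121 and 115 FPKM against 0.41, 0.23 and 0.50 for the muscle isoform *Cox7a1*. *Cox8a* had 519, 575 and 460 FPKM, and *Cox8b*, of muscle and brown fat, was listed at 0 in all 3 replicates. At the smallest scaled library size, that of replicate 3, a count of 3 reads on *Cox8b* would give 0.176 FPKM.

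Of the isoforms known from testis, *Cox6b2* was the only one above 1 FPKM. It had 1.95, 1.51 and 1.78 FPKM, which is 58, 39 and 65 reads, against 516, 526 and 466 for *Cox6b1*. *Cox7b2* was listed at 0 beside 79.3, 64.9 and 90.7 FPKM for *Cox7b*, and *Cox8c* was listed at 0 as well. At the smallest scaled library size 3 reads would give 0.118 FPKM on *Cox7b2* and 0.134 on *Cox8c*. The 6 Cox genes and the second model of *Ndufb8* were the 7 members below 1 FPKM in at least 1 replicate. None of these 6 Cox genes, nor *Cox6b2*, had a coding 50-mer that occurs again in the genome. On the log2(FPKM + 0.1) scale, *Cox7a2* exceeded *Cox7a1* by 7.99 (SD 0.48, n = 3) and *Cox4i1* exceeded *Cox4i2* by 10.7. *Cox4i2* is about the size of the added 0.1, and with 0.01 or 1 added in its place the difference was 11.49 or 8.34, so these sizes depend on the number added. The two-sided exact sign-flip permutation test over 3 replicates cannot go below p = 0.25, the value it gave for each pair.

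**Figure D2:**
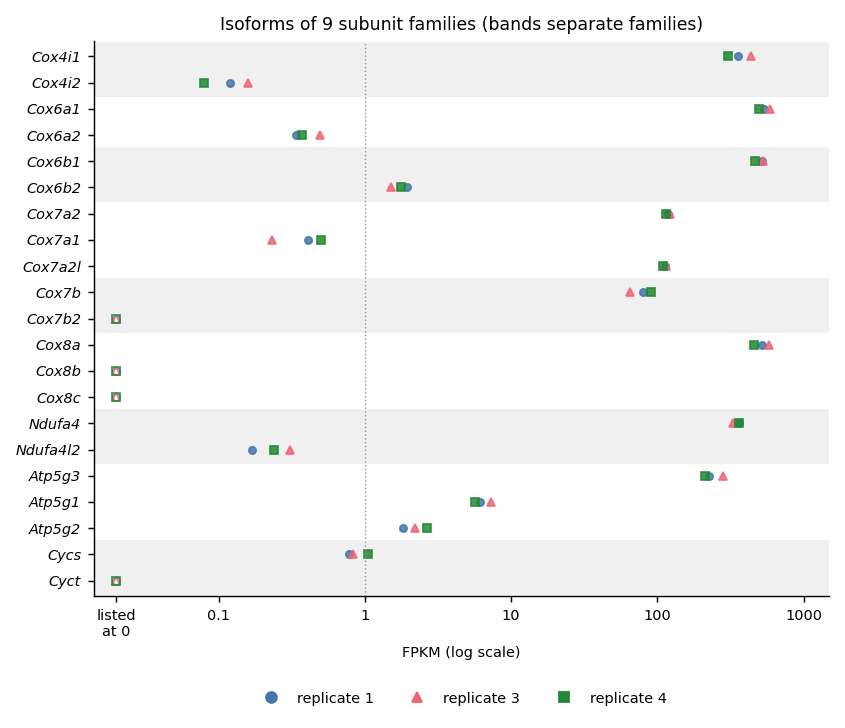
FPKM (log scale) of isoforms in 9 families, with shaded bands separating families; points are the 3 replicates, open symbols mark values listed at 0 and the dotted line marks 1 FPKM. Cox4i1, Cox6a1, Cox6b1 and Cox8a lie at 304 FPKM or more in each replicate and their tissue isoforms lie at or below 1.95 FPKM.

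Isoforms outside the gene set gave a similar contrast in one family and none in another. *Ndufa4l2*, a paralog of *Ndufa4* known for its induction by hypoxia, had 0.17, 0.31 and 0.24 FPKM. *Cox7a2l*, a paralog of *Cox7a2* whose product takes part in supercomplexes of the respiratory chain, had 113, 114 and 109 FPKM. The ratio of *Cox7a2* to *Cox7a2l* was 1.039, 1.062 and 1.055, and 68.9% of the coding 50-mers of *Cox7a2l* are repeated in the genome. Somatic cytochrome c, *Cycs*, had 0.78, 0.83 and 1.05 FPKM and its testis paralog *Cyct* was listed at 0. All coding 50-mers of *Cycs* occur again elsewhere in the genome, a property taken up with the c-ring genes.

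The c ring of the ATP synthase is made from 3 genes, *Atp5g1*, *Atp5g2* and *Atp5g3*, which differ in their import signals but encode the same mature subunit. *Atp5g3* had 224, 279 and 212 FPKM, *Atp5g1* had 6.09, 7.30 and 5.66, and *Atp5g2* had 1.81, 2.21 and 2.66. *Atp5g3* was 36.8 to 38.2 times *Atp5g1* and 79.9 to 126 times *Atp5g2*. The last 120 coding bases of each, from the transcripts of the mm9 annotation, are shown because the sequences bear on how the 3 can be told apart, with capitals for bases that differ from *Atp5g3*.
Atp5g3: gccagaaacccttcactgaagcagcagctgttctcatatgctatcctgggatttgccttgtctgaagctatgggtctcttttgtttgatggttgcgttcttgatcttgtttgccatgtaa
Atp5g1: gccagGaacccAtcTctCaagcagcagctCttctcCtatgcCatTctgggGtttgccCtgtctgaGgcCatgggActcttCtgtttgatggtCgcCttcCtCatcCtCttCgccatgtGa
Atp5g2: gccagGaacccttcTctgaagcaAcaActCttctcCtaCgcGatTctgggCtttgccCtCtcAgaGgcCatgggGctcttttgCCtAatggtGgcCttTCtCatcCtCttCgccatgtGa
*Atp5g1* differs from *Atp5g3* at 22 of these bases and *Atp5g2* at 28, of which 18 and 23 are at the third position of a codon. Between the paralogs the stretch is therefore distinct. The *Atp5g2* stretch, however, occurs without a gap at mm9 chr17:5816200-5816319 and chr7:24731811-24731930, within pseudogenes named *Gm10231* and *Gm10175*, while the stretches of *Atp5g1* and *Atp5g3* were found nowhere in one piece.

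Copies of this kind were counted for all members. A coding 50-mer is each run of 50 bases inside a coding exon, and the share that occurs again anywhere on the mm9 chromosomes, on either strand, was taken for each gene. More than 50% of the coding 50-mers were repeated in 13 of 83 members (15.7%), against a background of 9.44% of all genes with coding sequence. For *Atp5g2*, *Atp5l* and *Ndufb4* the share was 100%, for *Ndufab1* 99.6% and for *Atp5g1* 99.5%, and for *Atp5g3* it was 0%. These 5 members, with 99% or more, had means of 2.2 to 6.35 FPKM. The 8 members with 50 to 99% had a median of 59.95 FPKM and ran from 4.89 FPKM for *Cox7c* (75%) to 129 for *Cox5b* (75.4%). The 21 members with a share above 0 and up to 50% had a median of 106 FPKM. The 49 members with 0% had a median of 66.3 FPKM, and 8 of them were below 10 FPKM, namely *Cox6b2* and the 7 members below 1 FPKM in at least 1 replicate.

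Seen from the other side, 9 members were at 1 FPKM or more in every replicate but below 10 FPKM on average, and 7 of these 9 had more than 50% of their coding 50-mers repeated. The exceptions were *Ndufb2* (1.79% repeated) and *Cox6b2* (0%). *Cox7c*, which encodes a subunit of complex IV in all tissues, had 4.17, 4.82 and 5.67 FPKM. Of the 63 members at 1 FPKM or more with at most 50% of their coding 50-mers repeated, 2 were below 10 FPKM. Across the 76 members at 1 FPKM or more, Spearman's rho between the share and the mean FPKM was -0.213, over genes of the same libraries, which are not independent. Over all genes, 108 of 633 with 99% or more repeated were at 1 FPKM or more, and 7916 of 15986 with 0%. Among genes at 1 FPKM or more, a filter that removes low genes, the median was 13.4 FPKM for the 555 with more than 50% repeated and 11.1 for the 9449 others. How reads that fit several places were counted is not given in the sources used here, and the part of repeated sequence in the low levels was not tested.

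**Figure D3:**
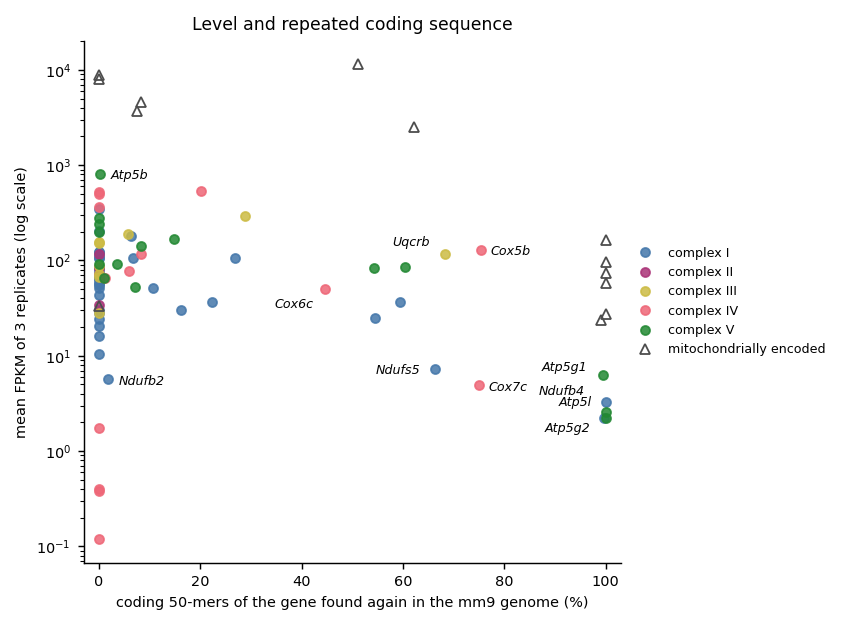
Mean FPKM of 3 replicates (log scale) against the percentage of a gene's coding 50-mers found again in the mm9 genome, for the 79 members with reads (filled, by complex) and the 13 mitochondrially encoded genes (open triangles). The 5 members at 99% or more lie between 2.2 and 6.35 FPKM, and those at 50 to 99% spread from 4.89 to 129 FPKM.

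A second property moved with some of the same genes. FPKM values of genes with several transcripts were nearest to whole reads when divided by the joined length of all annotated exons (mean distance 0.124 to 0.158 reads, against 0.198 to 0.253 for the longest transcript). The sets of short genes were small and not the same, with 24 to 27 genes for the joined length and 41 to 51 for the longest transcript. The joined-length distances also exceed the 0.051 to 0.0602 reads of genes with 1 transcript. This joined length was 17.9 times the coding length in *Ndufb2*, 14.7 times in *Ndufab1*, 12.0 times in *Atp5g1* and 6.53 times in *Ndufc1*, which had a mean of 10.5 FPKM. It was also 15.6 times in *Cox6c* at 49.7 FPKM, 11.3 times in *Atp5e* at 92.5 FPKM and 11 times in *Ndufb7* at 105 FPKM. Its rho with the mean FPKM over the same 76 members was -0.167. The part of the length in these levels was not tested.

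Near-identical copies of whole transcripts were also sought. At 95% identity or more over at least 50% of the longest coding transcript, 16 members had another place in the genome, from 1 place each to 10 for *Atp5l*. The count was 27 at 90% identity and 9 at 98%, and since copies were sought for members only, no share over all genes was computed. *Atp5g1*, *Ndufb4*, *Ndufab1* and *Cox7c* had no such copy at 95% or 90%, while the higher *Uqcrh*, *Uqcr11* and *Atp5o* had. For *Atp5g1*, *Ndufb4*, *Ndufab1* and *Cox7c* the longest coding transcript had 4715, 971, 3479 and 709 bases. The coding length was 408, 387, 468 and 222 bases, so a copy of the coding sequence alone could not cover 50% and was not counted. Some of the copies have values of their own in the files. *Gm10250* (mm9 chr15:5070602-5071148), 99.1% identical to *Atp5h*, had 195, 205 and 166 FPKM, more than the 89.1, 90.3 and 79.7 of *Atp5h* itself in every replicate. *Gm11273* (mm9 chr13:21592822-21593318), 99.2% identical to *Cox5b*, had 120, 121 and 117 FPKM beside 126, 131 and 131 for *Cox5b*. *Gm5436* (mm9 chr12:85599225-85599936), 97.2% identical to *Atp5o*, had 32.4, 35.1 and 27.8 FPKM beside 173, 182 and 147 for *Atp5o*. *Atp5l-ps1*, 98.3% identical to *Atp5l*, had 0.06, 0.27 and 0.15 FPKM. Other copies of the same parents were low: *Gm4953*, 95.5% identical to *Atp5h*, had 0.27, 0.18 and 0.12 FPKM. *Gm20388*, 97.2% identical to *Cox5b*, was listed at 0 in every replicate. Some reads may fit both parent and copy, and how such reads were counted is not given in the sources used here. The values of *Atp5h*, *Cox5b*, *Atp5o* and *Atp5l* are therefore uncertain.

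The other genes of the pathway were measured in the same libraries. The 13 mitochondrially encoded subunits ranged from 23.5 FPKM for *mt-Nd3* to 11403 for *mt-Co1*. Of the 13, 9 were among the highest 1000 genes, against a background of 4.41% of all genes. In 5 of the 13 all coding 50-mers occur again in the genome, and these had means of 27.3 to 166 FPKM. The 3 with 50 to 99% repeated were *mt-Co1* (51.0%) at 11403 FPKM, *mt-Nd4* (62.2%) at 2492 and *mt-Nd3* (98.99%) at 23.5. Of the 3 with 0% repeated, *mt-Nd1* and *mt-Cytb* had 7985 and 8766 FPKM, and *mt-Nd6*, the only subunit gene on the opposite strand, had 33.2. The libraries were made with an mRNA kit, and whether the kit or the strand bears on the value of *mt-Nd6* was not tested. The assembly factors, which insert cofactors and join subunits but are not part of the finished complexes, were far lower. Of 36, all were matched by current or older symbols, and 34 were at 1 FPKM or more in all replicates, against a background of 44.1% of all genes. Among the highest 1000 were 0 of them, where the background of 4.41% leaves few to be expected in a list of this size. Their median was 8.60 FPKM and their highest was *Coa3* at 61.1, below the median of the subunit genes.

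Of 13 transcriptional regulators of the pathway, 10 were at 1 FPKM or more in all replicates, against a background of 44.1% of all genes. The median over the 13 was 5.27 FPKM. *Ppargc1a*, the PGC-1 alpha coactivator known for driving mitochondrial biogenesis in muscle and brown fat, had 0.53, 0.41 and 0.77 FPKM. Its relatives *Ppargc1b* and *Pprc1* had means of 1.73 and 12.5 FPKM. Of the estrogen-related receptors, which PGC-1 proteins bind, *Esrra* had 16.3, 20.5 and 12.6 FPKM, *Esrrb* had at most 0.03 and *Esrrg* was listed at 0. The factors *Nrf1*, *Gabpa* and *Yy1* had means of 5.70, 9.80 and 13.5 FPKM. *Tfam*, which packs mitochondrial DNA and takes part in starting its transcription, had a mean of 3.54 FPKM.

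Promoter sequence was examined for the letters these factors are known to bind. Windows from 250 bases before to 50 after the start were given by RefSeq (GRCm38.p6) for 67 of the 82 symbols, 1 of them by a newer symbol, and came to 72 windows among 32851. Both strands were searched, and the YY1 and SP1 letters share a run at one end but neither holds the other. GCGCATGC (NRF1) was in 13.9% of member windows and 2.71% of all windows. CCGGAAG (ETS factors with GABPA) was in 22.2% and 8.86%, ATGGCGG (YY1) in 15.3% and 4.05%, and AAGGTCA (estrogen-related receptors) in 11.1% and 4.72%. At least 1 of these 4 was in 48.6% of member windows, 18.4% of all windows and 21.8% of windows of protein-coding genes. TGACGTCA (CREB) was in 5.56% and 1.79%, and CACGTG (E-box) in 9.72% and 7.15%. In windows from 100 bases before to 50 after the start, the E-box letters were in fewer member windows than all windows, 2.78% and 4.35%.

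GGGCGG (SP1) was in 38.9% of member windows, 35.7% of all windows and 46.2% of those of protein-coding genes. GCCNNNGGC (TFAP2, which reads the same on both strands) was in 15.3%, 16.6% and 19.9%, and the letters of the TATA box, TATAAA, in 11.1%, 13.6% and 12.6%. The median GC content of the windows was 57.5% for members, 56.3% for protein-coding genes and 52.7% for all. These are matches of letters, and no binding was measured here.

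**Figure D4:**
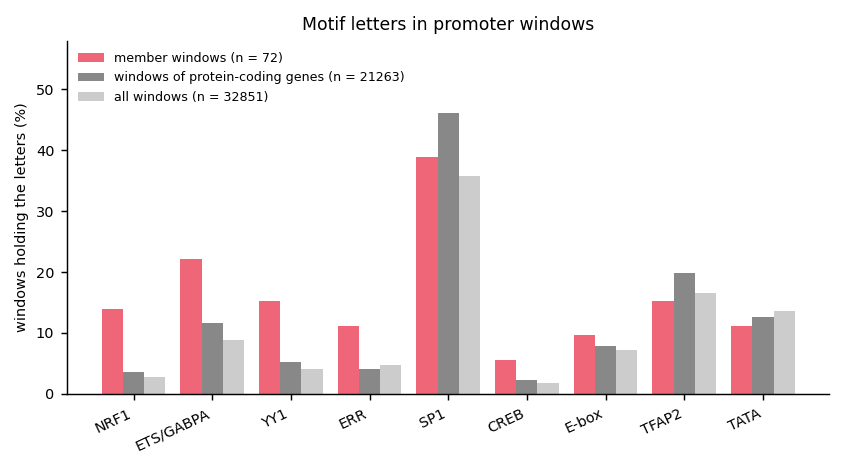
Share of promoter windows (percent, 250 bases before to 50 after the start) that hold each of 9 motifs on either strand, for 72 member windows, 21263 windows of protein-coding genes and all 32851 windows. The NRF1, ETS/GABPA, YY1 and ERR bars of members are 11.1 to 22.2% and exceed both other bars.

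The promoter windows of 3 members are shown as examples of the letters, chosen after their levels were seen: *Cox6a1* and *Atp5b* as the highest of complexes IV and V, and *Cox8b* as an isoform listed at 0. Each is written from 5′ to 3′ on the strand of the gene, with matches to any of the 9 motifs in capitals. They lie at GRCm38.p6 chr5:115348909-115349208 (minus strand), chr10:128083057-128083356 (plus strand) and chr7:140900397-140900696 (minus strand).
Cox6a1: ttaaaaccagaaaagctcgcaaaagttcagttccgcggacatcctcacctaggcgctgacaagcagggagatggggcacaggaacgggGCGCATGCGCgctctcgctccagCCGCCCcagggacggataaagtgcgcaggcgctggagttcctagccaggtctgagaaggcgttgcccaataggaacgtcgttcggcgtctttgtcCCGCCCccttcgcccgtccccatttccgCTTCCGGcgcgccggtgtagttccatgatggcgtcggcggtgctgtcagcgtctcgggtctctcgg
Atp5b: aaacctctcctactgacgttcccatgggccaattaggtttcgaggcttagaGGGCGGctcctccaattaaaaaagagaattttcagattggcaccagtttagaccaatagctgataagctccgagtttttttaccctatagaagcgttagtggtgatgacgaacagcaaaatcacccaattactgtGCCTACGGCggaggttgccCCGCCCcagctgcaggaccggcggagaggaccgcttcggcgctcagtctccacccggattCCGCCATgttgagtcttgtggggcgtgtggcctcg
Cox8b: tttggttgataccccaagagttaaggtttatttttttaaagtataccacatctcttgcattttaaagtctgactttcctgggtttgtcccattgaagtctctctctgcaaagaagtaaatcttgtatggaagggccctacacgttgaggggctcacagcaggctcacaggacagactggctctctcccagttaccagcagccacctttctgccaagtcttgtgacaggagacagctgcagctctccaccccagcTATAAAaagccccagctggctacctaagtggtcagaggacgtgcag
The *Cox6a1* window holds the NRF1 letters on both strands within 1 run, 2 SP1 matches and the ETS letters close to the start. *Atp5b* holds the YY1 letters just after the start, with 2 SP1 matches and 1 TFAP2 match before it. In *Cox8b* the sole match is TATAAA, which begins after the annotated start, at position 5. Among the highest genes of complexes I to III, the *Ndufa4* window held none of the 9 motifs. That of *Sdhb* held the NRF1, ETS and SP1 letters, and that of *Uqcrh* the ETS letters. Whether the letters go with level was not tested.

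The replicates differed little in these genes. The median coefficient of variation of the 76 members at 1 FPKM or more was 10.6%, and that of all 10011 such genes 11.4%. Between replicates 3 and 4, 3 of the 76 members passed a 1.5-fold ratio (3.95%), against a background of 18.6% of all such genes. *Uqcrc1* and *Cyc1* were higher in replicate 3, by 0.64 and 0.60 on the log2 scale, and *Ndufs1* was lower, with a log2 ratio of -0.63. *Cox7b*, with -0.48, came next in that direction. None of the 76 passed this ratio between replicates 1 and 3 or between 1 and 4, where the backgrounds were 2.15% and 3.54%. These are ratios of 1 library to another and have no test.

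The direction of the small differences was shared. Of the 76 members, 57 were higher in replicate 3 than in replicate 4, against 51.3% of all genes, and the median log2 ratio was 0.20 for members and 0.02 for all. The ratio moved with the GC content of the joined exons, with Spearman's rho 0.488 over the 76 members and 0.779 over 10007 genes. Median GC content was 50.5% for members and 50.1% for all genes. *Uqcrc1* and *Cyc1* have 57.5% and 58.3% GC, and *Ndufs1* and *Cox7b* have 45.1% and 41.7%. *Atp5g3* went the other way from its base composition, with 41.6% GC and a ratio of 0.39. Over the same 10007 genes rho was -0.719 for replicate 1 over 3 and 0.702 for replicate 1 over 4. In every pair the GC-rich genes were thus relatively higher in the replicate of smaller scaled library size. These sizes include the trimmed-mean scaling, so the number of reads sequenced per replicate is not known from them. The scaled sizes also differ most between replicates 3 and 4, and what lies behind the relation of the ratio to GC content was not tested.

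**Figure D5:**
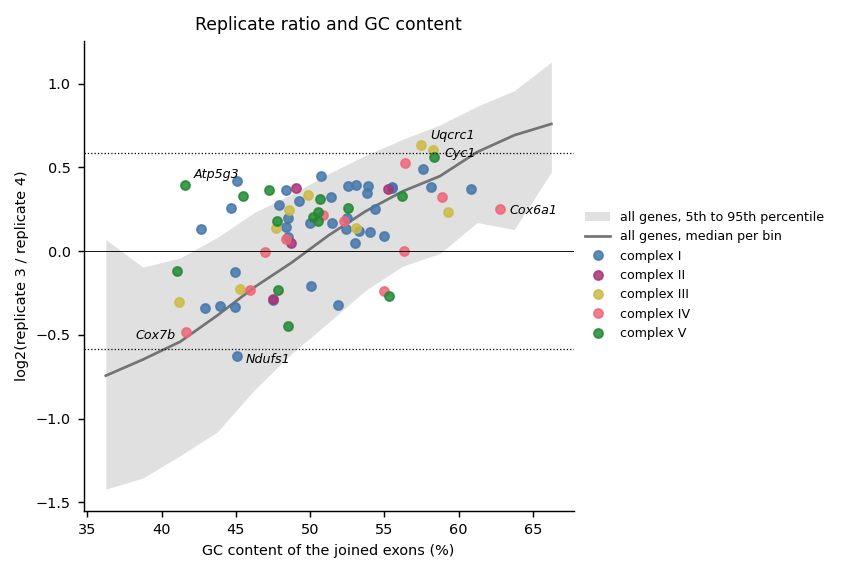
Log2 ratio of replicate 3 over replicate 4 against the GC content (percent) of the joined exons, for the 76 members at 1 FPKM or more (points, by complex) and all genes at that level (grey line, median per bin of 2.5 percentage points; band, 5th to 95th percentile); dotted lines mark a 1.5-fold ratio. Members of higher GC content tend to higher ratios (rho 0.488), and 3 lie outside the dotted lines.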

How the data were processed

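For each of 3 melan-a replicates, the authors deposited FPKM for 22698 Ensembl genes, with trimmed-mean-of-M-values scaling and 2 decimals. By the study's methods, libraries were made with a stranded mRNA kit. Reads were trimmed by 10 bases, aligned to mm9 with STAR (2.3.0e), cleared of rRNA reads and counted on Ensembl release 67 with HTSeq (0.5.3p3). The submitters' processing notes also name edgeR, with no version or role. The step from counts to FPKM is not given in the sources used here, and no count model was applied.

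Symbols and exons came from mm9 gene models of Ensembl 65, in which 374 of the genes are missing. Members and lists were chosen with earlier results of these data known. Named were the highest and lowest member of each complex, all isoforms, members below 1 FPKM, redox and catalytic subunits, and the 2 members with the largest ratio of replicates 3 and 4 in each direction. Other genes, such as *Ndufc1*, *Cox6c*, *Atp5h*, *Coa3*, *Gm10250* and those at the limit of the highest 1000, were named after their values were seen. Library sizes came from the step between low values, and repeated 50-mers from a count over both strands of the genome. Both procedures were tested on simulated data. One member is not reported here by itself. Copies were sought with BLAST 2.17.0. Reads were computed as FPKM times length and library size. Python 3.11.15 was used, with scipy 1.17.1 and numba 0.67.0.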

Additional observations from a re-analysis of the deposited data

How the results depend on the processing

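Alternatives were each replicate left out, the median over replicates, an effective length (joined exons less 150 bases), other filters, rescaling, pseudocounts of 0.01 and 1, other identities and a shorter promoter window, and, chosen after the data were seen, the repeated 50-mers and medians without the genes that have them. Of 76 alternative values for the main results, 51 kept within the spread between replicates or within 1.5 times the count, and no isoform difference changed direction. The E-box is an exception among single motifs, going from above all windows (9.72% against 7.15%) to below them in the shorter window (2.78% against 4.35%). The median over all members was 67.2 to 69.1 FPKM with 1 replicate left out, 77.0 with the effective length, 78.0 over members at 1 FPKM or more, and 175 when the values of a replicate were made to total 1000000. Without members with more than 50% of their exonic or coding 50-mers elsewhere it was 69.0 or 75.01 FPKM. With the effective length, complexes I to V had medians of 62.6, 84.0, 143, 147 and 101.1 FPKM, and rescaled they had 147, 205, 315, 313 and 241. Complex IV had 49.7 FPKM over all members and 98.1 without *Cox5b*, the member with more than 50% of its exonic 50-mers elsewhere. Without members with more than 50% of their coding 50-mers elsewhere, complex I had 63.5 FPKM and complex V 155, which is 1.70 times its main value. Members with a near-identical copy were 27 at 90% and 9 at 98% identity. Counted by more than 50% of exonic 50-mers, 35-mers or 75-mers elsewhere they were 3 each time. More than 50% of coding 35-mers or 75-mers were repeated in 14 and 9 members. Members in the highest 1000 were 42 to 47, and members past 1.5-fold between replicates 3 and 4 were 3 or 4. Depth limits *Cox4i2* and *Cox7a1*, which rest on 4 to 12 reads per replicate, and the genes listed at 0.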
